A study of Mus musculus with 8 samples.

Results

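The genes described here mark retinal ganglion cells or build their axons: Rbpms, Pou4f1, Pou4f2, Slc17a6, Sncg, Thy1, Stmn2, Nefl, Nefm and Nefh. They were taken as a list of 10 genes among the 16093 named genes with a retained probe, and every array probe whose accession maps to one of them was followed, which gave 16 of the 56605 distinct probes on the array. Retinal RNA was hybridized to one-color Agilent arrays, with 4 arrays from mice labelled homozygous for the Mrp4 knockout on a C57BL/6J background and 4 from wild-type mice, all aged 46 to 55 weeks with no treatment given. The arrays carrying the knockout label are called the Mrp4-null arrays and are numbered as the labels number them. The methods name tissue from 3 mice without saying whether retinas were pooled, and nothing states that each array came from a separate animal, so the p-values measure the spread between these samples.

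Signal quality was similar across the arrays, with 66.0% to 69.9% of probes well above background and 0 saturated spots, although the 75th percentile of the raw signal ran from 678 to 1082 intensity units and was lowest on Mrp4-null array 2 and wild-type array 3. The targeted gene went against the labels. Abcc4, which encodes the Mrp4 transporter, had a log2 signal between 10.64 and 10.84 under the knockout label and between 6.54 and 7.13 under the wild-type label, 3.92 higher on the log2 scale in the former (adjusted p = 1.36e-05, limma with Benjamini-Hochberg adjustment). The sources used here do not say whether this probe lies in the deleted part of the gene, so every direction below refers to the label only. Labels gave no sex. Xist, expressed from the inactive X chromosome, was well above background on all 4 Mrp4-null arrays and on wild-type arrays 1 and 2, whereas 0 of 7 probes for Y-linked genes were so on the Mrp4-null arrays and on wild-type array 1, against 6, 7 and 7 on wild-type arrays 2, 3 and 4. Wild-type array 2 thus gave signal for both Xist and Y-linked genes, and whether that sample held RNA from both sexes was not tested. The part of sex in the results was not tested.

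Retinal ganglion cells are the output neurons of the retina. Their cell bodies lie in the innermost cell layer, and their long axons run across the retinal surface and leave through the optic nerve to reach the brain. These neurons use glutamate as transmitter, take their identity in part from transcription factors of the Pou4f family, and fill their axons with neurofilaments, heteropolymers whose light, medium and heavy subunits set axon caliber. Ganglion cells are a small minority of retinal cells, so genes particular to them are read in whole retina against RNA from far more numerous photoreceptors and interneurons. In such bulk tissue, fewer cells of a type and less RNA per cell cannot be told apart.

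Promoter sequences are shown for 3 of the 10 genes, since Sncg and Pou4f2 had the smallest unadjusted p-values and Pou4f1 is the close relative of Pou4f2. Each is the 250 bases before the RefSeq start site on the GRCm38.p6 build, written 5′ to 3′ on the strand of the gene, which is the minus strand for all 3. Capitals mark every match, on either strand, to the GC box GGGCGG or the E-box CANNTG. Sncg lies at chr14:34374670-34374919, Pou4f2 at chr8:78436648-78436897 and Pou4f1 at chr14:104468000-104468249.
Sncg: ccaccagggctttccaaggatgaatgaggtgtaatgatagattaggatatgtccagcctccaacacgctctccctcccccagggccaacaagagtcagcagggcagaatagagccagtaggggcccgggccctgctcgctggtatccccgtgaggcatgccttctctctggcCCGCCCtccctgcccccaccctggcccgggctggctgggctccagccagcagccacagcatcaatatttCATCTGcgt
Pou4f2: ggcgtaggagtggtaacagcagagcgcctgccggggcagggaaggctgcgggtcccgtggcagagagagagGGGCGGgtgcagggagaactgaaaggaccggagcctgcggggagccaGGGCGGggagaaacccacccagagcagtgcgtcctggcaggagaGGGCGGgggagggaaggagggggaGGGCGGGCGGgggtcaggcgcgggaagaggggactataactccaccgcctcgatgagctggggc
Pou4f1: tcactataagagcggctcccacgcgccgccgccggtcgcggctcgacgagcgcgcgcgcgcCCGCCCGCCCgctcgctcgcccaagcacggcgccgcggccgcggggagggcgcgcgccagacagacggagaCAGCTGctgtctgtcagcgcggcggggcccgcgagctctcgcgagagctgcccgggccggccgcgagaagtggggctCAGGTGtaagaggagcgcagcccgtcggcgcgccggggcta
The Pou4f2 window held 5 GC boxes, of which the last pair overlaps, and no E-box. The Pou4f1 window held 2 overlapping GC boxes and 2 E-boxes, and the Sncg window held 1 of each. Among all 32851 promoter windows of this length, 32.7% held a GC box and 66.2% an E-box. The homeodomain core TAATTA, found in 4.84% of all windows, and the TATA element TATAAA, found in 12.4%, were matched in none of these 3 windows. Slc17a6, whose windows are not shown, held 1 TAATTA match at its start site 2. GC content was 61.6% for Sncg, 70.8% for Pou4f2 and 78.0% for Pou4f1, against a median of 52.4% over all windows. These matches describe the letters of the windows only.

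The question of the comparison was whether transcripts of ganglion cells and their axons differed between aged Mrp4-null and wild-type retinas. All 16 probes were well above background on all 8 arrays. None was called changed. A call required the adjusted p from limma, taken over all 37085 retained probes, to be under 0.05 and the means to differ by 1.5-fold or more, and 0.545% of all retained probes met it (0.289% lower and 0.256% higher on the Mrp4-null arrays). By limma, 2 of the 16 probes had an unadjusted p under 0.05, against 6.46% of all retained probes, and by the methods' local pooled error test 0 were called and 1 had an unadjusted p under 0.05. The smallest adjusted p by limma was 0.558. Fold differences were small: none of the 16 probes reached 1.5-fold, as 1.88% of all retained probes did, and for 13 of them the whole 95% interval lay within 1.5-fold either way, as it did for 77.2% of all retained probes.

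The differences nevertheless lay mostly on one side. The mean was lower on the Mrp4-null arrays for 15 of the 16 probes, where 53.2% of all retained probes and 54.6% of those at least as bright as the dimmest of the 16 were lower. By gene, with each gene read by its brightest probe, 9 of 10 were lower and the median log2 difference was -0.14, against 53.7% lower and a median of -0.01 over all 16093 named genes. The 16 probes share the same 8 arrays, and several share a gene, so they are not independent observations of direction. With 1 array left out, between 13 and 16 of the 16 probes were lower, with 13 without wild-type array 4 and all 16 without Mrp4-null array 1 or 4. The median over the genes ran from -0.17 to -0.08 in these settings and was smallest without wild-type array 1. Averaged over the 10 genes, log2 signal was 12.22, 12.15, 12.13 and 12.26 on the Mrp4-null arrays and 12.39, 12.34, 12.25 and 12.32 on the wild-type arrays. On that average the highest Mrp4-null array lay just above the lowest wild-type array, so the genotypes overlapped.

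**Figure D1:**
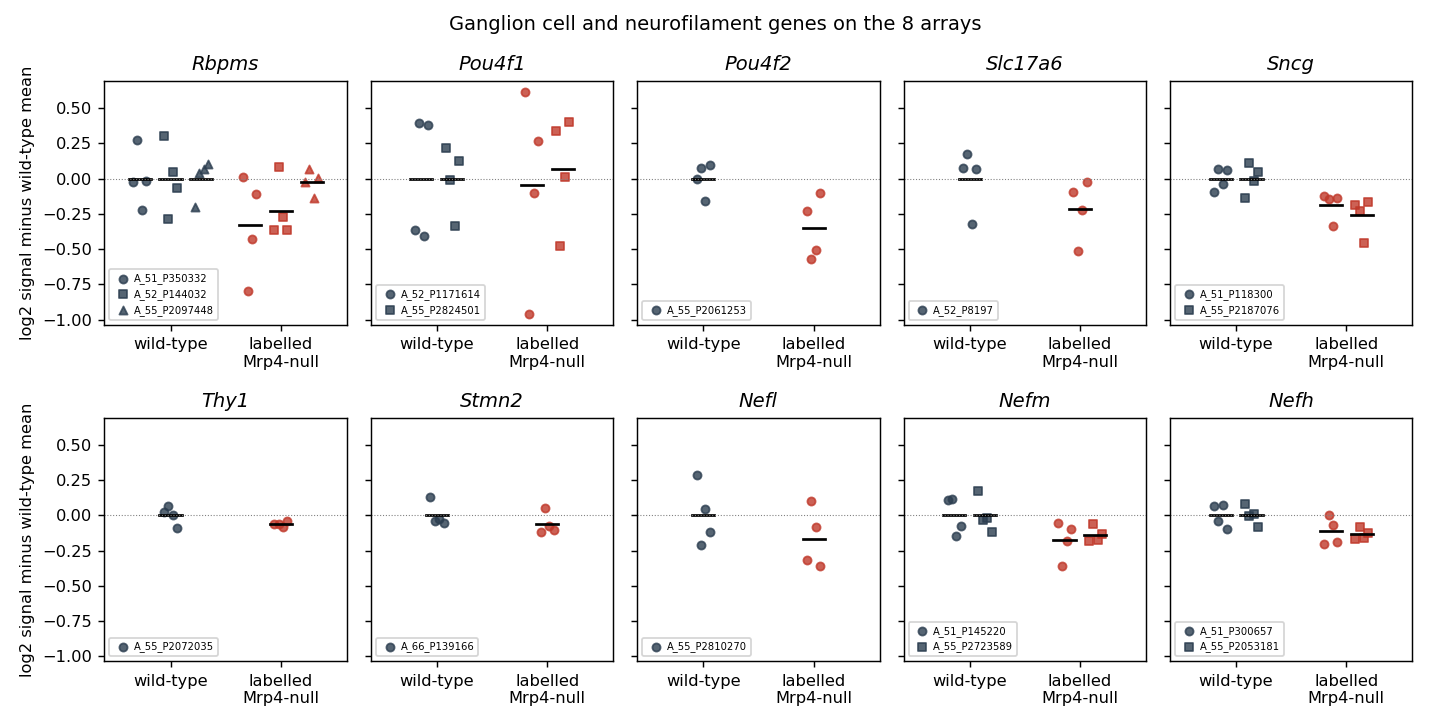
Normalized log2 signal of each of the 16 probes on each array, less the wild-type mean of that probe (y axis, log2 units), in 1 panel per gene with 1 marker shape per probe of the gene. Each point is an array, in the wild-type group or the group labelled Mrp4-null, and bars are group means. The groups overlap for 14 of the 16 probes, and the 2 probes for Sncg are the exceptions.

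Among the transcription factors, Pou4f2 had the largest difference of the 16 probes. This gene (also called Brn3b) encodes a POU-domain factor required for the differentiation and survival of most ganglion cells. Its log2 signals were 9.66, 9.32, 9.38 and 9.78 on the Mrp4-null arrays and 9.89, 9.96, 9.72 and 9.98 on the wild-type arrays. Mrp4-null arrays 1 to 3 lay below every wild-type array, and array 4 lay above wild-type array 3 only. The mean was 0.35 lower on the log2 scale, a ratio of 0.784 (95% interval 0.646 to 0.951), with an unadjusted limma p of 0.0195 and an adjusted p of 0.558.

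Pou4f1 (Brn3a), a related factor found in many mature ganglion cells, gave a different picture. Its brighter probe (A_55_P2824501) read 13.31, 12.50, 12.99 and 13.38 on the Mrp4-null arrays and 13.20, 12.97, 12.64 and 13.10 on the wild-type arrays, a difference of 0.07 (95% interval -0.40 to 0.53). This was the 1 probe with a higher mean under the knockout label, and its direction turned, to -0.02, -0.04 and -0.04, without Mrp4-null array 1, Mrp4-null array 4 or wild-type array 3, and it was 0.25 without Mrp4-null array 2. The dimmer probe (A_52_P1171614) read 7.62, 6.05, 6.91 and 7.27 against 6.65, 7.40, 6.60 and 7.38, a difference of -0.05 with the widest interval of the set, from -0.83 to 0.73. Arrays of both genotypes were interleaved on both probes, and the interval of the dimmer probe reached past 1.5-fold in both directions. That probe also turned, to 0.26 without Mrp4-null array 2 and to 0.08 without wild-type array 2 or 4, and reached -0.26 without Mrp4-null array 1.

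Rbpms, an RNA-binding protein used as a marker of essentially all ganglion cells in rodent retina, was measured by 3 probes. The brightest (A_55_P2097448) read 8.05, 8.14, 7.93 and 8.07 on the Mrp4-null arrays and 7.87, 8.11, 8.14 and 8.17 on the wild-type arrays, a difference of -0.02 (95% interval -0.23 to 0.19). A second probe to the same transcript accession (A_52_P144032) read 6.67, 7.12, 6.76 and 6.67 against 7.34, 6.75, 7.08 and 6.97, a difference of -0.23 (95% interval -0.57 to 0.11). The probe to the other transcript accession (A_51_P350332) had the lowest mean difference, -0.33 (95% interval -0.75 to 0.09, adjusted p 0.929), from 7.76, 6.95, 7.32 and 7.64 against 7.72, 8.02, 7.52 and 7.73. The genotypes overlapped on all 3 probes, and the array that was lowest differed from probe to probe. Single arrays also set their size: the -0.33 became -0.18 without Mrp4-null array 2, the -0.23 became -0.13 without wild-type array 1 (and -0.14 under normexp background correction), and the brightest probe ran from -0.09 without wild-type array 1 to 0.02 without Mrp4-null array 3.

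Slc17a6 encodes the vesicular glutamate transporter VGLUT2, which loads glutamate into synaptic vesicles of ganglion cells. It read 10.15, 9.74, 10.03 and 10.23 on the Mrp4-null arrays and 10.33, 10.43, 9.93 and 10.32 on the wild-type arrays. Its difference of -0.21 (95% interval -0.54 to 0.11) was smaller than the range within either genotype, and it moved to -0.11 without Mrp4-null array 2 and to -0.32 without wild-type array 3.

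Sncg was the gene whose arrays separated by label. It encodes gamma-synuclein, a small protein abundant in ganglion cell bodies and axons. The brighter probe (A_55_P2187076) read 13.11, 13.07, 12.85 and 13.13 on the Mrp4-null arrays and 13.16, 13.41, 13.28 and 13.34 on the wild-type arrays. All 4 Mrp4-null arrays lay below all 4 wild-type arrays, with a gap of a few hundredths between the closest pair. The mean was 0.26 lower on the log2 scale, a ratio of 0.835 (95% interval 0.719 to 0.971), with an unadjusted limma p of 0.0245 and an adjusted p of 0.609.

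The dimmer Sncg probe (A_51_P118300) showed the same arrangement, with 10.86, 10.84, 10.65 and 10.85 on the Mrp4-null arrays and 10.89, 11.06, 10.95 and 11.05 on the wild-type arrays. Its difference was -0.19 (95% interval -0.38 to 0.00, unadjusted p 0.0546, adjusted p 0.790). On both probes Mrp4-null array 3 was lowest and wild-type array 2 highest. Mrp4-null array 3 also had the highest signal of all 8 arrays for 6 of 7 microglia genes, 2 of 4 astrocyte genes and 7 of 17 axon injury genes, and the part of this in the Sncg values was not tested. Without that array the genotypes still did not overlap on either Sncg probe, with differences of -0.20 (unadjusted p 0.0648) and -0.13 (unadjusted p 0.146), both with an adjusted p of 1.00 by limma. These were the only 2 of the 16 probes whose genotypes did not overlap, where 4.79% of all retained probes did not overlap and 2.36% did so with the Mrp4-null arrays lower. Both belong to 1 gene and were read from the same RNA, and under other settings the number of such probes was between 1 and 7, with 5 of 16 without Mrp4-null array 2 (10.9% of all retained probes there), 4 without wild-type array 3 (7.37%) and 5 without wild-type array 4 (6.27%).

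Thy1, a GPI-anchored surface glycoprotein that in the retina is found largely on ganglion cells, had the smallest SD on the Mrp4-null arrays of the 16 probes, 0.016. These arrays read 14.43, 14.43, 14.41 and 14.45 and the wild-type arrays 14.51, 14.55, 14.49 and 14.40. Wild-type array 4 lay below all Mrp4-null arrays and the other wild-type arrays above them, and the difference was -0.06 (95% interval -0.22 to 0.10), with -0.04 without wild-type array 2, -0.09 without wild-type array 4 and -0.12 when arrays were only shifted to a common 75th percentile.

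Stmn2, a tubulin-binding protein of growing and regenerating axons, read 13.18, 13.35, 13.22 and 13.19 on the Mrp4-null arrays and 13.42, 13.25, 13.27 and 13.24 on the wild-type arrays, a difference of -0.06 (95% interval -0.24 to 0.12). In each genotype a single array, Mrp4-null array 2 or wild-type array 1, lay above the other 3, and the genotypes overlapped. The difference was -0.02 without that wild-type array and -0.10 without that Mrp4-null array, and it was -0.09 under the 75th percentile shift and -0.11 without both arrays of low overall signal.

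The 3 neurofilament subunits were each slightly lower on average, with no probe called. Nefl, the light subunit, read 14.23, 14.65, 14.47 and 14.18 on the Mrp4-null arrays and 14.83, 14.34, 14.59 and 14.43 on the wild-type arrays, a difference of -0.17 (95% interval -0.49 to 0.16). The brighter Nefm probe (A_55_P2723589), for the medium subunit, read 13.07, 13.19, 13.07 and 13.12 against 13.42, 13.21, 13.23 and 13.13, a difference of -0.14 (95% interval -0.33 to 0.06). The brighter Nefh probe (A_55_P2053181), for the heavy subunit, read 13.00, 13.09, 13.01 and 13.04 against 13.25, 13.16, 13.18 and 13.09, a difference of -0.14 (95% interval -0.30 to 0.03). For Nefm and Nefh the genotypes overlapped through wild-type array 4 and Mrp4-null array 2, the highest Mrp4-null array on both probes. The dimmer Nefm probe read 10.90, 10.60, 10.77 and 10.86 against 11.06, 11.07, 10.81 and 10.87 (difference -0.17, 95% interval -0.40 to 0.06), and the dimmer Nefh probe 11.44, 11.64, 11.57 and 11.45 against 11.71, 11.60, 11.71 and 11.55 (difference -0.11, 95% interval -0.30 to 0.07). The intervals of all 5 neurofilament probes lay within 1.5-fold and contained 0. The means of Nefl and the brighter Nefm probe leaned on wild-type array 1, the highest array on both, and without it they differed by -0.07 and -0.08. Nefl also moved to -0.10 without Mrp4-null array 4 and to -0.25 without Mrp4-null array 2, and the dimmer Nefm probe to -0.11 without Mrp4-null array 2.

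**Figure D2:**
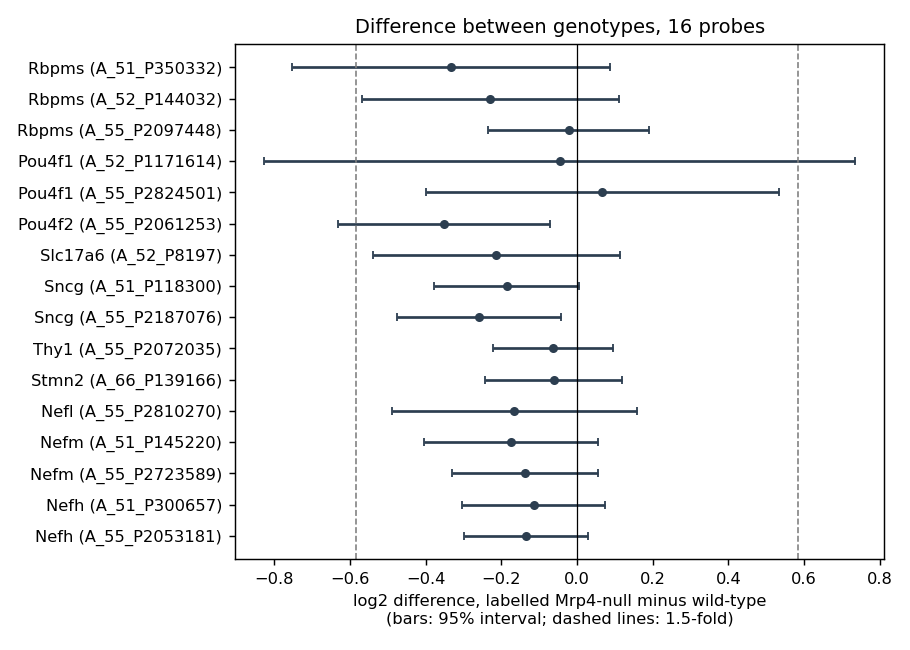
Log2 difference (Mrp4-null arrays minus wild-type arrays, x axis) of each of the 16 probes with its 95% interval from limma, 4 arrays in each genotype, and dashed lines at 1.5-fold. The points run from -0.35 for Pou4f2 to 0.07 for the brighter Pou4f1 probe, and 13 of the 16 intervals lie within 1.5-fold either way.

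Both arrays of low overall signal, Mrp4-null array 2 and wild-type array 3, were compared with the means of their own genotypes. They lay below on 6 probes, namely both Pou4f1 probes, Pou4f2, Slc17a6, the dimmer Nefm probe and the Rbpms probe with the lowest mean difference, and above on 5, namely both Nefh probes, Nefl and the other 2 Rbpms probes. Over all retained probes, 39.3% were below on both arrays and 40.1% above on both. The largest such deviation was that of the dimmer Pou4f1 probe, which was 0.91 below the genotype mean on Mrp4-null array 2 and 0.41 below on wild-type array 3, whereas Nefl was 0.26 and 0.04 above. On both arrays the Pou4f1 and Pou4f2 probes were thus low, and the Nefl and Nefh probes high, within their genotypes. Without both arrays, 0 of the 16 probes were called by limma and the dimmer Pou4f1 probe differed by 0.12 in place of -0.05.

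**Figure D3:**
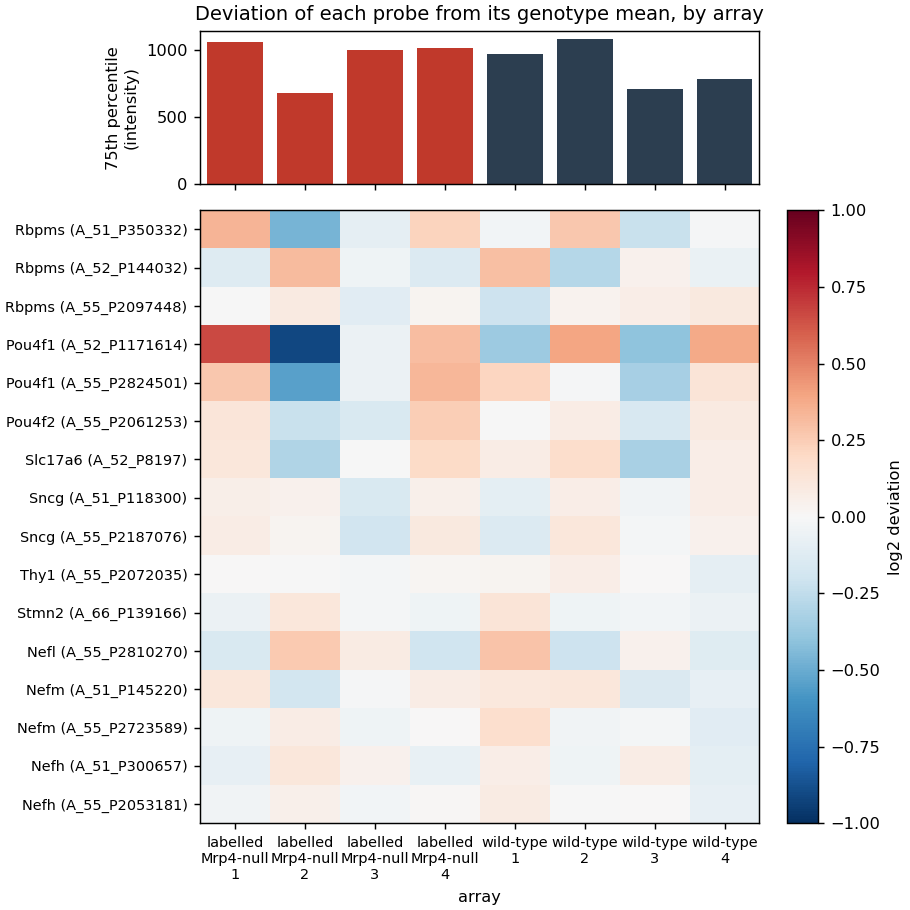
Deviation of each array from the mean of its own genotype in log2 units (color) for the 16 probes (rows) and 8 arrays (columns), under bars of the 75th percentile of the raw signal of each array. Mrp4-null array 2 and wild-type array 3 are low for both Pou4f1 probes and Pou4f2 and high for Nefl and both Nefh probes.

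The genes outside the gene lists whose deviations from the genotype means most resembled those of the 10 genes averaged were Ptcd3 (r = 0.987), Ankrd61 (0.986), Mapk9 (0.980), Gemin4 (0.973) and Usp29 (0.972). These are Pearson correlations over 8 arrays, chosen as the highest among the named genes, and are given as a description.

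A wider list of 25 ganglion cell genes was read in the same way, and 24 had a retained probe. Of these 24 genes, 19 were lower by the brightest probe and the median was -0.14, the same value as for the 10 genes. Without Mrp4-null array 3 that median was -0.10, with 21 genes lower, and it was -0.13 for the 10 genes. Per-array averages of the list were 9.48, 9.38, 9.45 and 9.46 for Mrp4-null and 9.56, 9.61, 9.49 and 9.56 for wild-type. These averages did not overlap, but Mrp4-null array 1 (9.480) and wild-type array 3 (9.490) nearly met. Uchl1, described below, enters these averages and read 14.94 and 15.64 on those arrays. Whether the averages stay apart without Uchl1 was not tested. The list had 1 called gene, where 0.652% of all named genes had a called probe. That gene was Uchl1, a ubiquitin hydrolase abundant in neurons including ganglion cells, with 14.94, 15.13, 14.82 and 14.90 on the Mrp4-null arrays and 15.44, 15.67, 15.64 and 15.70 on the wild-type arrays. Uchl1 was lower by 0.67 on the log2 scale (95% interval -0.89 to -0.44, adjusted p 0.0234, limma), and all Mrp4-null arrays lay below all wild-type arrays. The call was made in 9 of 18 alternatives. With 1 array left out, it held without Mrp4-null array 2 or wild-type array 1 (adjusted p 0.0184 and 0.0321) and was lost without any of the other 6, with adjusted p up to 0.103. The log2 difference stayed between -0.73 and -0.62 in all 18. At the other end stood Kcng4, a modifier subunit of potassium channels, with a difference of 0.16.

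Other genes of the list gave smaller values. Tbr1, a transcription factor of a subset of ganglion cells, differed by -0.33 (unadjusted p 0.0289, adjusted p 0.647). Rbpms2, the close relative of Rbpms, did not overlap between genotypes on 1 of its 2 probes, with 12.11, 12.16, 12.04 and 12.09 on the Mrp4-null arrays and 12.29, 12.27, 12.28 and 12.26 on the wild-type arrays, a difference of -0.17 (adjusted p 0.659). Chrna6, a nicotinic receptor subunit, likewise did not overlap, at -0.14 (adjusted p 0.929). Ebf1 did not overlap on its dimmer probe, with 9.12 to 9.34 on the Mrp4-null arrays and 9.35 to 9.40 on the wild-type arrays. That probe differed by -0.11. Cartpt, a neuropeptide of some direction-selective ganglion cells, did not overlap in the opposite direction, with 13.52 to 13.67 on the Mrp4-null arrays and 13.43 to 13.48 on the wild-type arrays, a difference of 0.15 (adjusted p 0.824). These genes are named after their values were seen, and no count over the list is given. Over all retained probes, 4.79% did not overlap, and 2.36% did so with the Mrp4-null arrays lower.

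Of relatives of the 10 genes in the same protein families, 8 of 11 were lower and the median was -0.04, with 0 called and 1 at an unadjusted p under 0.05. Stmn1, a stathmin that destabilizes microtubules, was highest and did not overlap between genotypes in the opposite direction, with 15.20, 15.01, 14.96 and 15.23 on the Mrp4-null arrays and 14.67, 14.76, 14.59 and 14.68 on the wild-type arrays. It was higher by 0.43 on its brighter probe (adjusted p 0.132) and by 0.52 on the other (adjusted p 0.139), whereas Stmn2 differed by -0.06. Stmn1 lies on chromosome 4.

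Genes of the axon were then read by role. Neuronal cytoskeleton and axonal transport genes had a median of 0.02, with 10 of 25 lower and values from -0.14 for Tubb3 to 0.43 for Stmn1. Genes of the axon initial segment and node of Ranvier had a median of -0.02, with 10 of 19 lower, from -0.28 for Scn4b to 0.18 for Ank3, the ankyrin that organizes the initial segment. Genes listed for neurofilament phosphorylation and turnover, mostly kinases, had a median of -0.01, with 9 of 15 lower. The range ran from -0.10 for Ckap5, a microtubule-associated protein included in that list, to 0.06 for Gsk3b. No gene of these 3 lists was called by limma, and at an unadjusted p under 0.05 the counts were 1, 0 and 0.

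Genes that respond to axon injury had a median of 0.12, and 4 of 17 were lower. None was called by limma, and 3 had an unadjusted p under 0.05 on the brightest probe, each with a higher mean there: Ecel1 at 0.49 (adjusted p 0.613), Hrk at 0.45 (adjusted p 0.296) and Chac1 at 0.26 (adjusted p 0.391). Ecel1, an endopeptidase-like protein induced in injured neurons, was measured by 2 probes of opposite direction, and the dimmer one differed by -0.59 with a smaller unadjusted p of 0.00162 (adjusted p 0.153) and no overlap between genotypes, so no direction is given for this gene. Sox11, a transcription factor of axon regeneration, was lowest at -0.22. Mrp4-null array 3 stood apart for several genes of this list, among them Lgals3 with 11.06 against 8.35 to 8.81 on the other Mrp4-null arrays, and Cebpd with 13.33 against 11.44 to 11.73. These 2 genes are named after their values were seen. Without that array, a setting chosen after seeing the data, Lgals3 went from 0.32 to -0.30 and Cebpd from 0.44 to 0.00, the list median was 0.09, and 6 of 17 genes were lower.

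**Figure D4:**
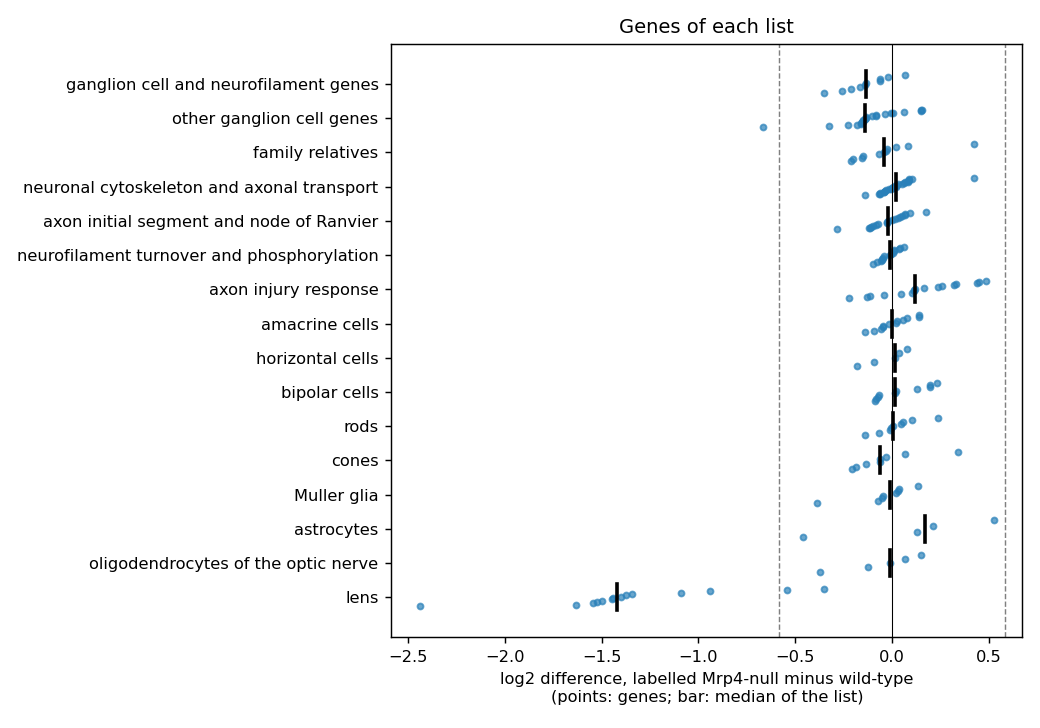
Log2 difference (Mrp4-null minus wild-type arrays, x axis) of each retained gene, read by its brightest probe, in 16 gene lists (y axis), with a bar at the median of each list and dashed lines at 1.5-fold. The ganglion cell lists have medians of -0.14, the lens list of -1.42, and the lists of other retinal neurons between -0.06 and 0.02.

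Markers of other cells in the tissue were read beside these results. Amacrine cells, which share the innermost layer with ganglion cells, had a median of 0.00 over 12 genes, from -0.14 for Slc18a3 to 0.14 for Th. Medians were 0.02 over 5 horizontal cell genes (Calb1 -0.18, Lhx1 0.08), 0.02 over 10 bipolar cell genes (Gng13 -0.09, Grm6 0.24), 0.01 over 9 rod genes (Nr2e3 -0.14, Sag 0.24) and -0.06 over 8 cone genes (Pde6h -0.21, Arr3 0.34). No gene of these 5 lists was called by limma, and the counts at an unadjusted p under 0.05 were 0, 0, 1, 0 and 1.

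Markers of glia, vessels, blood and the pigment epithelium also had 0 genes called by limma. Muller glia had a median of -0.01 over 8 genes (Aqp4 -0.39, Clu 0.13), astrocytes 0.17 over 4 (S100b -0.46, Gfap 0.53), and oligodendrocytes of the optic nerve -0.01 over 5 (Cnp -0.37, Mog 0.15), each with 1 gene at an unadjusted p under 0.05. Endothelium had a median of -0.11 over 8 genes (Tek -0.37, Tie1 0.26) with 2 at an unadjusted p under 0.05, microglia 0.17 over 7 (P2ry12 -0.16, Aif1 0.34), blood 0.17 over 3 (Alas2 0.07, Hba-a1 0.17) and pigment epithelium 0.19 over 6 (Rlbp1 -0.05, Rpe65 0.22), with 0 each. The astrocyte and microglia medians rested on Mrp4-null array 3. Gfap, the intermediate filament of astrocytes and reactive Muller glia, read 9.05 there against 7.29 to 7.56 on the other Mrp4-null arrays and 7.07 to 7.63 on the wild-type arrays, and Aif1, a calcium-binding protein of microglia, read 8.84 against 7.48 to 7.92 and 7.48 to 7.85. Without that array Gfap differed by 0.12 and Aif1 by 0.06, and the list medians were 0.06 and -0.03.

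Lens genes stood apart in size. All 14 retained lens genes were lower on average on the Mrp4-null arrays, with a median of -1.42. Mip, the main membrane protein of lens fibers, was well above background on 2 of the 4 Mrp4-null arrays only, and its fitted difference of -2.44 rests on values below background. The 13 genes measured on all 8 arrays ran from -1.63 for Lim2 (adjusted p 0.865), another membrane protein of lens fibers, to -0.35 for Crygd. The mean log2 signal of these 13 genes ran from 6.46 to 8.26 on the Mrp4-null arrays and from 7.41 to 9.65 on the wild-type arrays, so the genotypes overlapped. By limma 0 of the 14 were called and 5 had an unadjusted p under 0.05, whereas the methods' local pooled error test, which takes the spread from probes of similar signal, called 12 of the 14, all lower. That test called 0 genes in each of the other cell type and axon lists, and Uchl1 alone among the wider ganglion cell genes. The part of lens tissue, of other cell types and of overall signal in the ganglion cell values was not tested.

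The 10 genes lie on 6 chromosomes. Sncg, Nefl, Nefm and Pou4f1 are on chromosome 14, which also holds Abcc4, Rbpms and Pou4f2 are on chromosome 8, and Slc17a6, Thy1, Stmn2 and Nefh are on chromosomes 7, 9, 3 and 11. Of named genes, 3.58% on chromosome 14 and 4.18% on chromosome 8 had a called probe, against 2.27% on chromosome 4, which holds none of the 10 genes, and 0.197% on all other chromosomes. The 6 genes on chromosomes 8 and 14 had a median difference of -0.15 (range -0.35 to 0.07) and the 4 elsewhere of -0.10 (range -0.21 to -0.06), and the ranges overlapped.

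The nearest tested genes along the chromosome were taken, 10 on each side of each gene. On chromosome 14, 4 of 60 distinct neighbors were called, and on chromosome 8, 0 of 40. Beside Nefl and Nefm, which are adjacent, the called genes were Slc25a37, Gm31896 and Entpd4. Slc25a37 (mitoferrin, a mitochondrial iron importer), the 6th gene from Nefl, read 10.19, 10.58, 10.37 and 10.39 on the Mrp4-null arrays and 11.28, 11.30, 11.63 and 11.55 on the wild-type arrays on its brighter probe, a difference of -1.06 (95% interval -1.33 to -0.79, adjusted p 0.00549). Its dimmer probe differed by -2.95 (adjusted p 0.000846).

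Gm31896, the next gene, was not well above background on any Mrp4-null array and was at least 3.78-fold lower there. Here the bound is the wild-type mean over the lowest signal well above background on each Mrp4-null array. The adjusted p of 0.000192 by limma belongs to the fitted difference of -3.63, not to the bound. That difference rests on Mrp4-null signals not well above background. Entpd4, a nucleotide-hydrolyzing enzyme and the 9th gene from Nefl, differed by -0.79 on its brightest probe (adjusted p 0.00720). Nefl and Nefm themselves differed by -0.17 and -0.14 with adjusted p over 0.05.

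On the same chromosome, Spry2, an inhibitor of receptor tyrosine kinase signaling and the 7th gene from Pou4f1, was called higher by 1.91 on a dimmer probe (adjusted p 0.000371), while its brighter probe differed by 0.23 (adjusted p 0.648). No neighbor of Sncg or of the 6 genes on chromosomes other than 14 was called. For Stmn2 only 15 neighbors were available, as the gene lies near the start of the tested genes on chromosome 3.

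**Figure D5:**
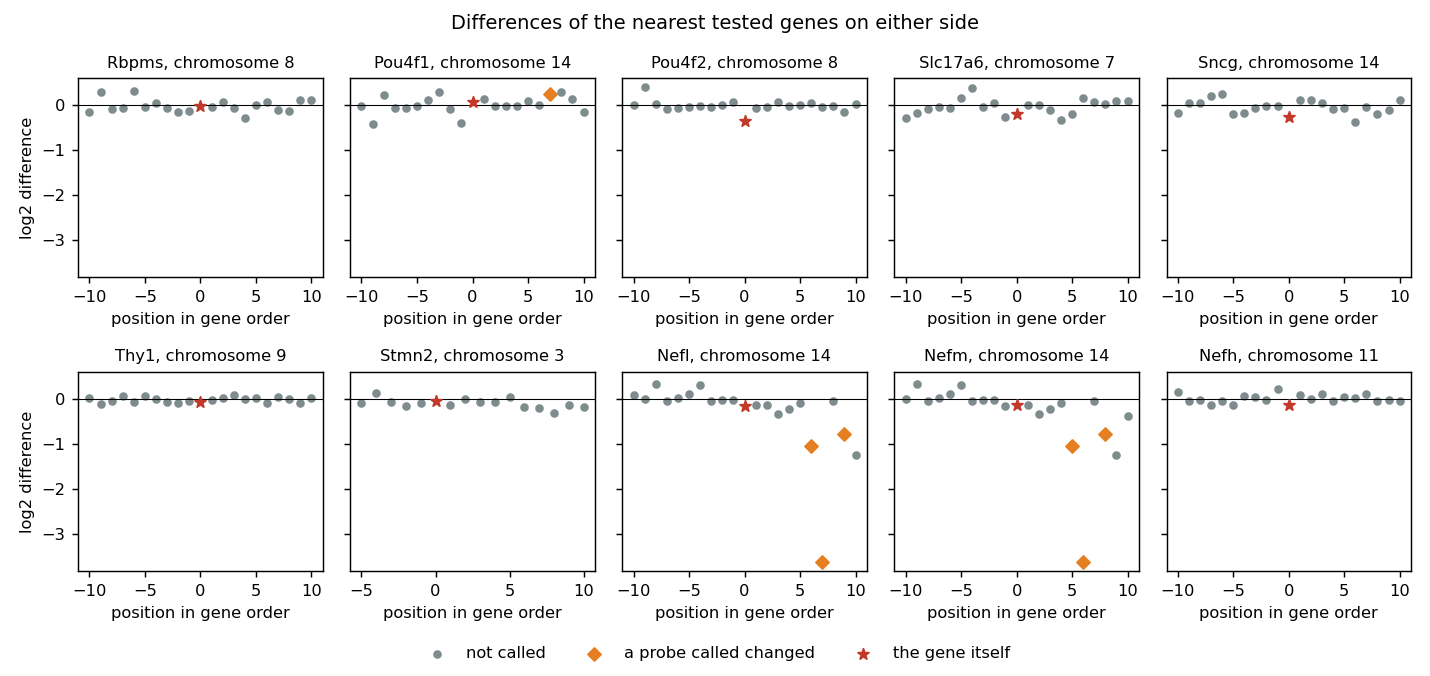
Log2 difference (Mrp4-null minus wild-type arrays, y axis) of the brightest probe of the tested genes around each of the 10 genes, by position in gene order (x axis), with diamonds for genes with a called probe and a star for the gene itself. Called neighbors appear in the panels of Nefl, Nefm and Pou4f1 only, and the 10 genes themselves lie between -0.35 and 0.07.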

How the data were processed

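The authors deposited Agilent Feature Extraction output (version 11.0.1.1, per the file headers) for 8 one-color arrays, and the processed signal, a background-corrected fluorescence intensity per spot, was read from it. Control spots and outlier spots were left out, spots of a probe averaged, and log2 values quantile normalized, after the methods. A probe was retained where it was well above background on all measured arrays of at least 1 genotype, with at least 3 arrays measured there and 2 in the other, which left 37085 of 56605 probes. Probes were named through their accession (58.3% matched), and a gene was read by its brightest probe unless stated. Mrp4-null and wild-type arrays were compared with limma 3.58.1 in R 4.3.3, with Benjamini-Hochberg adjustment over all retained probes. A call needed an adjusted p under 0.05 and a fold change of at least 1.5. The test was checked on simulated data. The number of arrays limits the precision.

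The members and gene lists were chosen with earlier results of these data known. All 10 genes are named with every probe. From other lists, the called genes and those with the highest and lowest difference are named. Called neighbors and the 5 genes most alike over the arrays are named too. Tbr1, Rbpms2, Chrna6, Ebf1, Cartpt, Hrk, Chac1, Lgals3 and Cebpd were named after their values were seen. The lowest gene of 1 list is not reported here. Alternatives were another scaling, background correction, filter, spot summary, test and threshold, a replicate block, and leaving out arrays. The deposited table of values, also in intensity units, was used for 1 alternative. Each genotype occupied its own row of the 1 slide, so slide row and genotype cannot be told apart. Gene order and chromosomes come from a RefSeq table of GRCm38.p6, and promoters were listed for 4 of the 10 genes.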

Additional observations from a re-analysis of the deposited data

Results flagged for a closer look

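Groups of 4 arrays were screened for a single array far from the rest, as the gap to its nearest neighbor over the range of the group, against the 95% limit of Dixon's test. Of 38 groups, 3 passed, and chance passes about 1 in 20. The dimmer Sncg probe on the Mrp4-null arrays reached 0.917, since array 3 read 10.65 and the others 10.84 to 10.86. The same array was the highest of all 8 for 6 of 7 microglia genes. Stmn2 on the wild-type arrays reached 0.834, with 13.42 on array 1 and 13.24 to 13.27 on the others. The 75th percentile of the raw signal on the Mrp4-null arrays reached 0.846, with 678 on array 2 and 1000 to 1058 on the others.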

How the results depend on the processing

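The count of called probes among the 16 was 0 under all 20 alternatives, and the median over the 10 genes lay between -0.17 and -0.08, the latter without wild-type array 1. Among the 24 other ganglion cell genes the 1 call (Uchl1) became 0 under a shift to a common 75th percentile, with the replicate block and without the 2 arrays of low signal, and leaving out 1 array gave 0 to 1 (0 in 6 of 8). Probes without overlap numbered 1 under the 75th percentile shift (5.23% of all retained probes there), 7 without the 2 arrays of low signal (13.9%) and 2 to 5 with 1 array left out (6.12% to 10.9%). The direction turned for the brightest Rbpms probe under the 75th percentile shift (0.0048) and normexp background correction (0.00031), and over -0.089 to 0.016 with 1 array left out. It turned for the dimmer Pou4f1 probe without the 2 arrays of low signal (0.12) and over -0.26 to 0.26 with 1 array left out, and for the brighter over -0.044 to 0.25. The cause was not tested. All other values for the 16 probes kept their direction.

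Sample numbers did not pair the arrays, since deviations of arrays with the same number correlated at -0.29, -0.69, 0.03 and 0.41. With the number as a replicate block, calls over all retained probes went from 202 to 71, and the smallest adjusted p among the 16 probes was 0.865. Calls over all probes lay between 71 and 232 under the alternatives that kept both thresholds, and 699 probes passed the fold threshold alone. With 4 arrays a genotype, the 95% intervals of 3 of the 16 probes, for Pou4f2, the dimmer Pou4f1 probe and 1 Rbpms probe, reached past 1.5-fold.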
